A study of Mus musculus with 16 samples.

Results

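The 10 genes described here belong to the integrated stress response and were followed through the livers of mice given perfluorooctanoic acid (PFOA) on 2 diets. They are the transcription factors Atf4, Atf5 and Ddit3, the regulators Trib3 and Sesn2, the enzymes Asns, Psat1 and Chac1, and the secreted factors Fgf21 and Gdf15. They were taken by gene symbol as factors and targets of the ATF4 pathway plus its stress hormones, 10 of the 53465 genes in the count table, and all 10 passed the filter on low counts that left 14998 genes tested. RNA of whole liver was sequenced from 16 C57BL/6 mice aged 29 to 30 weeks, with 4 mice in each of 4 groups. Mice had 16 weeks of diet and then 8 weeks of treatment. HFD_PFOA mice had high-fat diet and PFOA, CD_PFOA mice control diet and PFOA, HFD_vehicle mice high-fat diet and vehicle, and CD_vehicle mice control diet and vehicle. The high-fat diet was meant to give a fatty liver before treatment. Dose of PFOA, sex of the mice and diet composition are missing from the labels used.

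In the integrated stress response, kinases that sense amino acid shortage, unfolded protein in the endoplasmic reticulum, viral RNA or haem shortage phosphorylate the translation factor eIF2. General translation then slows while the mRNA of the transcription factor ATF4 is translated better, so ATF4 protein can increase without more Atf4 mRNA. ATF4, often with C/EBP partners such as CHOP (the product of Ddit3), turns on genes for amino acid supply, the pseudokinase TRIB3 and the hormones FGF21 and GDF15. In liver Fgf21 is also a target of the nuclear receptor PPARA, which PFOA, a perfluorinated carboxylic acid, is known to activate in rodents.

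ATF4 and its C/EBP partners are known to bind composite elements, read here as TGATGNAA on either strand. A second form, TGNTGCAA, was added after the promoters of these genes had been read. In the 250 bases before the RefSeq start sites (build GRCm38.p6), TGATGNAA occurred in 3.45% and TGNTGCAA in 2.72% of 32851 promoters of all genes, and either of them in 5.32%. TGATGCAA counts under both. Among the 13 such promoters of the 10 genes, 3 held the first form, 5 held the second form, and 6 held either, each in a different gene. Trib3, Psat1 and Sesn2 matched only through the second form. Because that form was added after reading these promoters, its count and the count for either form cannot be weighed against the shares of all promoters. The cyclic AMP element TGACGTCA occurred in 0 of the 13 promoters and in 1.55% of all. The promoters of the 5 genes that were higher with PFOA and of Chac1, which was lower, are shown because they are the 6 that hold a match, with the match in capitals and each read 5′ to 3′ along the gene. A match is a run of letters and was not tested for binding.
The Trib3 promoter (chr2:152344061-152344310, minus strand) holds its match 33 to 26 bases before the start.
Trib3: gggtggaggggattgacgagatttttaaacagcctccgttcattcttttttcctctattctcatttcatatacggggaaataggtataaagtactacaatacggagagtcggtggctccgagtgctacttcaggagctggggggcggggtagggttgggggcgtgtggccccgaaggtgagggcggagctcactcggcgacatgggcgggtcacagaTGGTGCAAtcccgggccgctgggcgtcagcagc
The Asns promoter (chr6:7693210-7693459, minus strand) holds its match 23 to 16 bases before the start.
Asns: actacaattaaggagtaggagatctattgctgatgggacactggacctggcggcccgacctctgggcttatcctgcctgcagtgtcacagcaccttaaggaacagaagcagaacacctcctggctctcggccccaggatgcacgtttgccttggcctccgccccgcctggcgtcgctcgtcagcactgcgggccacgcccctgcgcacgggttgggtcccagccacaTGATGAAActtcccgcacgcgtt
The Psat1 promoter shown, chr19:15925060-15925309 on the minus strand, belongs to the first of 2 start sites and holds its match 136 to 129 bases before it.
Psat1: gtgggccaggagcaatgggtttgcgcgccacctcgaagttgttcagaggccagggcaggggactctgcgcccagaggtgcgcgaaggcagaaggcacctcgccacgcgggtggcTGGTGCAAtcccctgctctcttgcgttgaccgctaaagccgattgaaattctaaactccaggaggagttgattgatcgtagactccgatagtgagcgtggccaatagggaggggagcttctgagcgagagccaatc
The Sesn2 promoter (chr4:132510457-132510706, minus strand) holds its match on the opposite strand, ending 211 bases before the start.
Sesn2: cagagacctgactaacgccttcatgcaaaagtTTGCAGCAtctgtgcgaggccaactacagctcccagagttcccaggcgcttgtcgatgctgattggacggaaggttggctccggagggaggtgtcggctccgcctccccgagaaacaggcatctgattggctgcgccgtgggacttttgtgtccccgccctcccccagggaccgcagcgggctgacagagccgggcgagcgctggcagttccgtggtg
The Fgf21 promoter (chr7:45615491-45615740, minus strand) holds its match on the opposite strand 139 to 132 bases before the start.
Fgf21: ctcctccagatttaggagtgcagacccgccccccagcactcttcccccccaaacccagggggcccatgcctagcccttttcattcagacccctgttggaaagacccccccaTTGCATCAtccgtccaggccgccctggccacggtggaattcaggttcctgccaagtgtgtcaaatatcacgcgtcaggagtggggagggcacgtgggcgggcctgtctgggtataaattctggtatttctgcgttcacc
The Chac1 promoter (chr2:119350992-119351241, plus strand) holds its match on the opposite strand 193 to 186 bases before the start.
Chac1: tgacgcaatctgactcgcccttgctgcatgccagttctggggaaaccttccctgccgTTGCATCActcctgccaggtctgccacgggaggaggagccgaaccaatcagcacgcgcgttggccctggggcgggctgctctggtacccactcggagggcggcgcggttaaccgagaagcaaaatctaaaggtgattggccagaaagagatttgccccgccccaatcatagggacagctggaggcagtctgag
Trib3 and Psat1 share the same match, TGGTGCAA, read along the gene. Fgf21, which was higher with PFOA, and Chac1, which was lower, share TGATGCAA on the opposite strand, so the letters alone did not separate the genes by direction. The RefSeq starts are not those of GENCODE M21 in every case: of the 13 windows, 5 lie outside the annotated gene, 4 reach into it and 4 lie wholly within it. The matches of Asns and Psat1 lie inside the annotated gene, and those of Trib3, Sesn2, Fgf21 and Chac1 outside it.

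Libraries held 14456524 to 25778125 counts in all, and the libraries of each group all differed from one another by more than counting noise (chi-square over its degrees of freedom 8.33 to 146). Levels are counts per 1000000 of the TMM-scaled library (CPM). The smallest count behind any of their values is 11, for Asns in CD_vehicle 2. A gene is called at a Benjamini-Hochberg adjusted p under 0.05 over all genes tested, from edgeR's quasi-likelihood test on all 16 libraries. Errors of log2 fold changes are SE, and other errors are SD over 4 mice. Some libraries stood apart. CD_vehicle 1 was the highest of its group in 6 of the 10 genes (Atf4, Atf5, Ddit3, Asns, Chac1 and Sesn2), and CD_vehicle 4 was the highest in the other 4 (Trib3, Psat1, Fgf21 and Gdf15). CD_vehicle 2 was the lowest in 8. CD_vehicle 1 also had 11237 CPM summed over 12 endoplasmic reticulum chaperones, against 4155 to 5078 in the other CD_vehicle livers, and CD_vehicle 4 had 327 CPM of B and plasma cell markers, while no other library had over 24.0. HFD_PFOA 1 had 3615 CPM of chaperones, against 2492 to 2792 in the other HFD_PFOA livers, and 21.3 CPM of neutrophil markers, against 2.12 to 2.45 in those and at most 8.16 elsewhere. Summed markers of hepatocytes, which identify the tissue, ran from 56208 to 67919 CPM in HFD_PFOA, 62320 to 79575 in CD_PFOA, 84479 to 98821 in HFD_vehicle and 110078 to 143615 in CD_vehicle livers. In whole liver, fewer cells of a type and less RNA per cell cannot be told apart.

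With PFOA 5 of the 10 genes rose on each diet, and they were the same 5: Trib3, Asns, Psat1, Fgf21 and Sesn2. Chac1, another usual target of ATF4, fell with PFOA on both diets. Of the 3 transcription factors among the 10, Atf4 fell on the control diet, and Atf5 and Ddit3 were not called on either diet. On the control diet 5 were called higher and 2 lower, where 11.8% of all genes tested were called higher and 12.6% lower. On the high-fat diet 5 were called higher and 1 lower, against 8.6% and 7.91% of all genes. The groups did not overlap for 6 of the 10 genes on the control diet, against 22.7% of all genes, and for 6 on the high-fat diet, against 25.3%. The median absolute log2 difference of the 10 genes was 0.93 on the high-fat diet and 1.07 on the control diet, against 0.28 and 0.33 over all genes. The livers given vehicle also serve in the comparison of diets, which therefore shares samples with these.

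**Figure D1:**
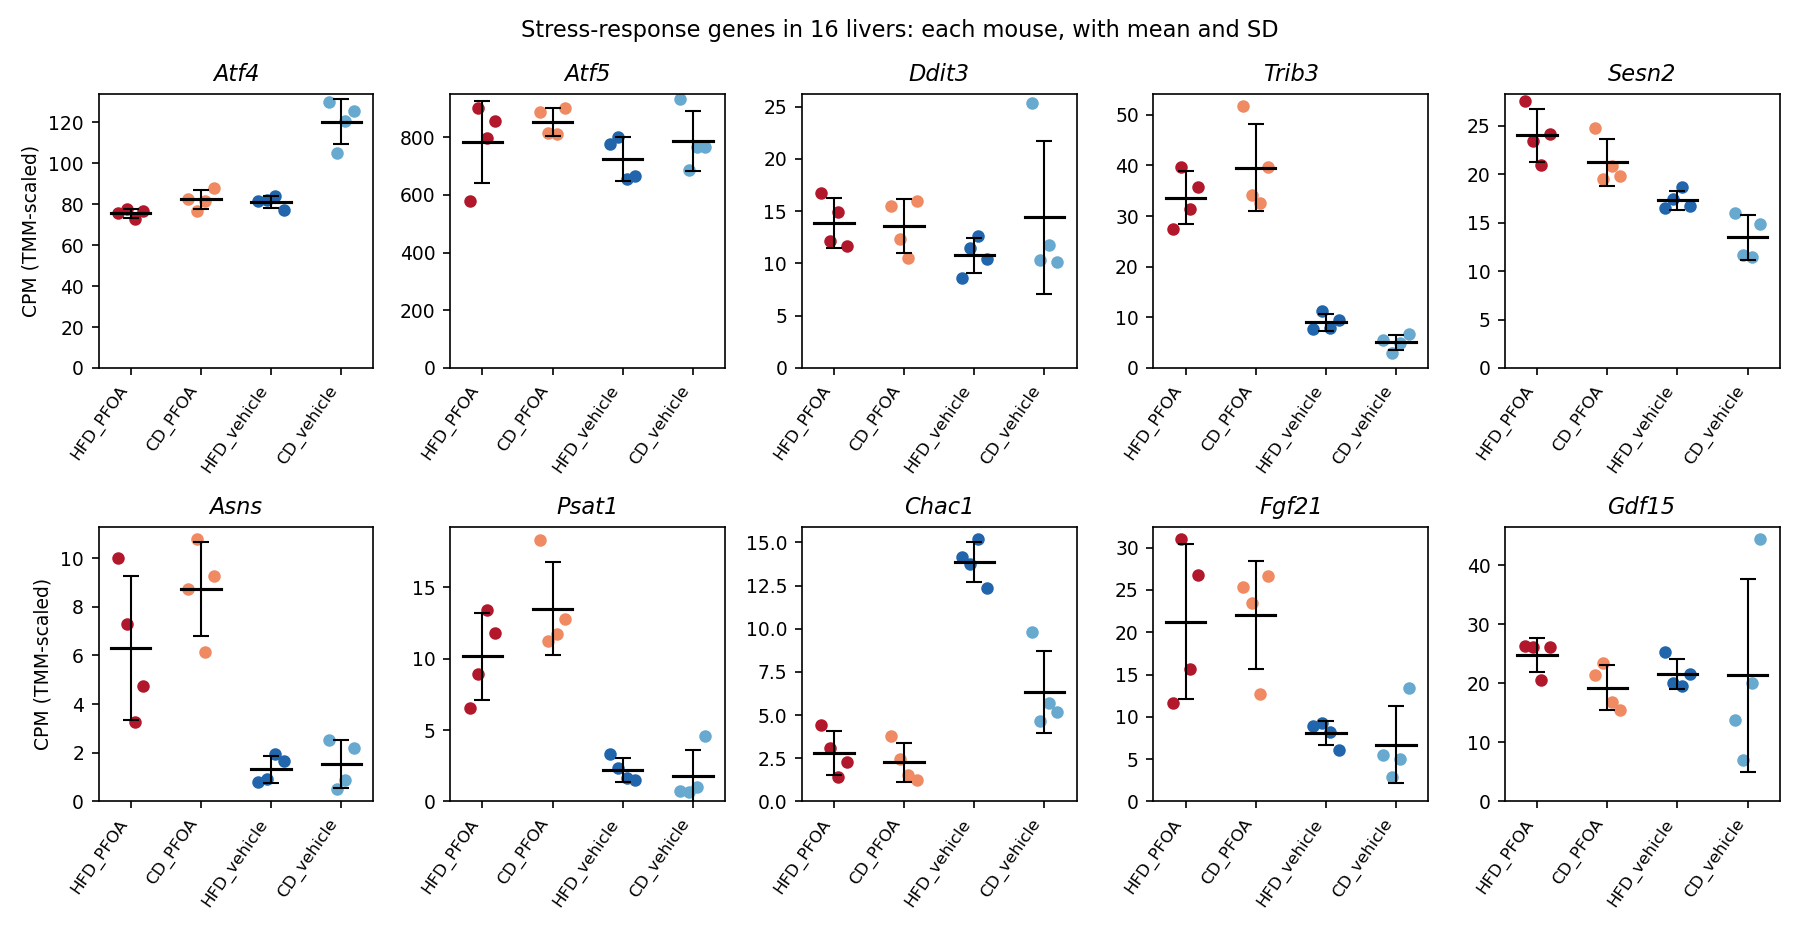
CPM of the 10 genes in each of 16 livers, with the vertical axis from 0 in each panel, points for single mice, and lines and bars for the mean and SD of 4 mice. Trib3, Asns and Psat1 stand higher in every PFOA liver than in any liver given vehicle, Chac1 stands lower in every PFOA liver, and Atf4 is highest in the 4 CD_vehicle livers.

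Among the transcription factors, Atf4 (chr15:80255184-80257541, plus strand, GRCm38) stood apart only in livers given control diet and vehicle. It had 75.7, 77.7, 72.6 and 76.9 CPM in HFD_PFOA livers, against 81.6, 82.3, 83.9 and 77.0 CPM in HFD_vehicle livers. On the control diet it had 82.8, 76.9, 81.7 and 88.2 CPM in CD_PFOA livers, against 130, 105, 121 and 125 CPM in CD_vehicle livers. The control diet pair did not overlap, and the high-fat pair did, by the lowest HFD_vehicle mouse. The log2 fold change with PFOA was -0.10 ± 0.08 on the high-fat diet (edgeR adjusted p = 0.458) and -0.55 ± 0.08 on the control diet (edgeR adjusted p = 3.86e-05). Hepatocyte marker sums were lower with PFOA on both diets, while Atf4 was called lower with PFOA only on the control diet. The part of these markers in the level of Atf4 was not tested.

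Atf5 (chr7:44812256-44816658, minus strand), an ATF4 relative that is likewise controlled at translation and acts in the response to mitochondrial protein stress, was the most abundant of the 10. It had 579, 902, 796 and 856 CPM in HFD_PFOA livers, against 777, 802, 656 and 666 CPM in HFD_vehicle livers. CD_PFOA livers had 888, 814, 811 and 902 CPM, against 934, 688, 765 and 766 CPM in CD_vehicle livers. Both pairs overlapped. Its level per kb of exon averaged 393 ± 71.6 CPM in HFD_PFOA, 428 ± 24.1 in CD_PFOA, 364 ± 37.6 in HFD_vehicle and 396 ± 52.2 in CD_vehicle livers. PFOA gave log2 0.11 ± 0.12 on each diet (95% interval -0.15 to 0.37 on the high-fat and -0.14 to 0.37 on the control diet). Of its exon bases, 4.11% are shared with exons of Nup62 and Il4i1 on the other strand, which unstranded counts cannot separate.

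Ddit3 (chr10:127290774-127296288, plus strand) encodes CHOP, the factor tied to prolonged stress of the endoplasmic reticulum. HFD_PFOA livers had 16.8, 12.2, 14.9 and 11.7 CPM, against 8.57, 11.5, 12.6 and 10.4 CPM in HFD_vehicle livers. CD_PFOA livers had 15.5, 12.4, 10.5 and 16.0 CPM, against 25.4, 10.3, 11.8 and 10.1 CPM in CD_vehicle livers. The groups overlapped on both diets, and the highest value of all was that of CD_vehicle 1, the liver with the most chaperone RNA. The log2 fold change was 0.37 ± 0.25 on the high-fat diet (edgeR adjusted p = 0.354) and -0.08 ± 0.24 on the control diet (edgeR adjusted p = 0.845), and the control diet value was 0.34 without CD_vehicle 1. Exons of Mars, Gm4189 and a second Ddit3 model share 10.9% of its exon bases.

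Trib3 (chr2:152337422-152344032, minus strand) encodes a pseudokinase that ATF4 and CHOP induce and that in turn binds AKT and restrains ATF4. Its levels were 27.5, 39.6, 31.5 and 35.8 CPM in HFD_PFOA livers, against 7.65, 11.2, 7.79 and 9.42 CPM in HFD_vehicle livers. On the control diet they were 51.8, 34.2, 32.7 and 39.6 CPM in CD_PFOA livers, against 5.55, 3.02, 4.87 and 6.71 CPM in CD_vehicle livers. Every PFOA liver was above every liver given vehicle, with a wide gap. The rise was 3.72-fold on the high-fat diet (log2 1.89 ± 0.20, edgeR adjusted p = 1.02e-06) and 7.83-fold on the control diet (log2 2.97 ± 0.21, edgeR adjusted p = 3.22e-09). Group means ordered as CD_PFOA (39.6 ± 8.65 CPM), HFD_PFOA (33.6 ± 5.24), HFD_vehicle (9.02 ± 1.67) and CD_vehicle (5.04 ± 1.54), and only the first neighbours in that order did not differ beyond their spread.

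Sesn2 (chr4:132492032-132510501, minus strand), which encodes a sestrin that binds leucine and holds back the growth kinase complex mTORC1, rose less. Livers of HFD_PFOA mice had 27.5, 23.5, 20.9 and 24.2 CPM, against 16.5, 17.5, 18.7 and 16.7 CPM in HFD_vehicle livers. On the control diet the values were 24.8, 19.5, 20.9 and 19.8 CPM in CD_PFOA livers and 16.1, 11.6, 11.4 and 14.9 CPM in CD_vehicle livers. Neither pair overlapped. The rise was 1.39-fold on the high-fat diet (log2 0.47 ± 0.13, edgeR adjusted p = 0.0133) and 1.57-fold on the control diet (log2 0.65 ± 0.13, edgeR adjusted p = 8.01e-04). Without HFD_PFOA 1, its highest mouse, the high-fat call was lost (edgeR adjusted p = 0.0544). That liver also had the most chaperone RNA and neutrophil marker RNA of its group, and their part in the call was not tested.

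Both amino acid enzymes were scarce in livers given vehicle and rose steeply. Asns (chr6:7675169-7693254, minus strand) encodes asparagine synthetase. It had 9.998, 7.29, 3.27 and 4.74 CPM in HFD_PFOA livers, against 0.811, 0.918, 1.93 and 1.65 CPM in HFD_vehicle livers. CD_PFOA livers had 8.72, 10.8, 6.15 and 9.28 CPM, against 2.54, 0.504, 0.890 and 2.18 CPM in CD_vehicle livers. The groups did not overlap on either diet, but mice within a group differed widely. The rise was 4.81-fold on the high-fat diet (log2 2.27 ± 0.44, edgeR adjusted p = 0.00101) and 5.66-fold on the control diet (SE 0.43 on the log2 scale, edgeR adjusted p = 2.32e-04).

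Psat1 (chr19:15904678-15947337, minus strand) encodes phosphoserine aminotransferase of the serine pathway. It had 6.52, 8.92, 13.4 and 11.8 CPM in HFD_PFOA livers, against 3.36, 2.35, 1.67 and 1.53 CPM in HFD_vehicle livers. CD_PFOA livers had 18.3, 11.3, 11.7 and 12.8 CPM, against 0.751, 0.687, 1.03 and 4.57 CPM in CD_vehicle livers. All PFOA livers lay above all livers given vehicle, and CD_vehicle 4 lay far above the other 3 of its group. The rise was 4.53-fold on the high-fat diet (log2 2.18 ± 0.45, edgeR adjusted p = 0.00170) and 7.62-fold on the control diet (log2 2.93 ± 0.46, edgeR adjusted p = 8.17e-05). Leaving out CD_vehicle 4 moved the control diet value to log2 4.03.

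Chac1 (chr2:119351229-119354381, plus strand) encodes a cyclotransferase that breaks down glutathione. It had 4.45, 3.11, 1.40 and 2.27 CPM in HFD_PFOA livers, against 14.1, 13.8, 15.2 and 12.4 CPM in HFD_vehicle livers. CD_PFOA livers had 3.78, 2.48, 1.56 and 1.23 CPM, against 9.80, 4.67, 5.71 and 5.17 CPM in CD_vehicle livers. Neither pair overlapped. It was 4.94-fold lower with PFOA on the high-fat diet (log2 -2.30 ± 0.34, edgeR adjusted p = 7.14e-05) and 2.80-fold lower on the control diet (log2 -1.49 ± 0.35, edgeR adjusted p = 0.00341).

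Trib3 and Chac1, both known as targets of ATF4 and CHOP, therefore moved apart. Per kb of exon, the ratio of Trib3 to Chac1 in a liver was 4.76 to 17.3 in HFD_PFOA and 10.5 to 24.9 in CD_PFOA livers, against 0.395 to 0.628 in HFD_vehicle and 0.436 to 0.9996 in CD_vehicle livers. Livers with and without PFOA did not overlap in it. Per kb of exon Chac1 was the more abundant of the pair in all 8 livers given vehicle, with a ratio of 0.9996 in CD_vehicle 4, and Trib3 in all 8 PFOA livers.

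**Figure D2:**
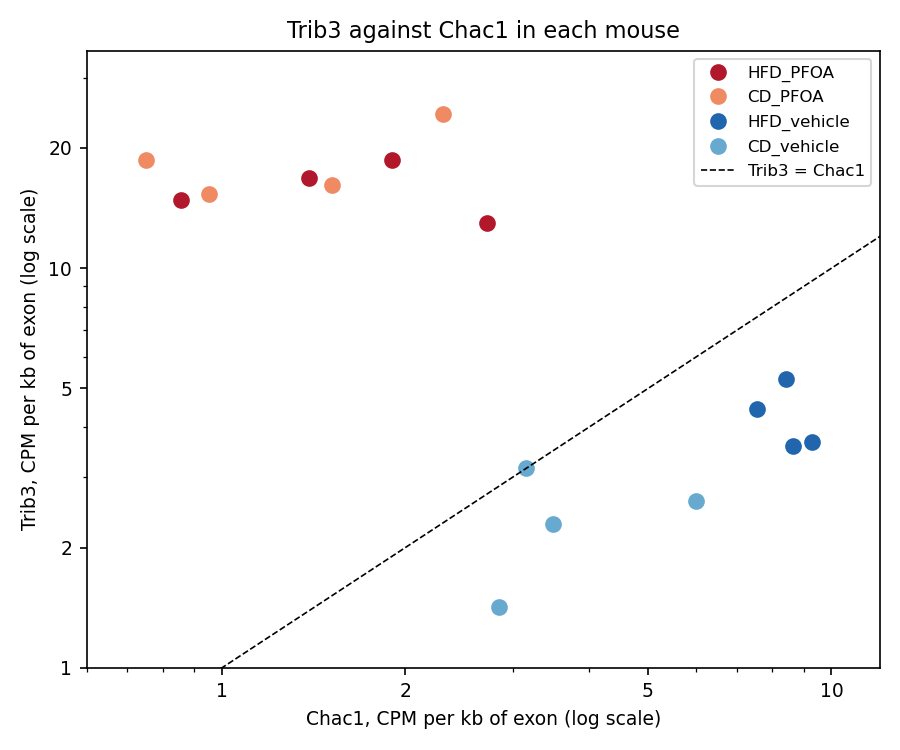
Trib3 (vertical) against Chac1 (horizontal) in CPM per kb of exon, both on log scales, with a point for each of 16 livers and a dashed line where both are equal. The 8 PFOA livers lie above the line, at ratios of 4.76 to 24.9, and the 8 livers given vehicle lie on or below it, at 0.395 to 0.9996.

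Of the secreted factors, Fgf21 rose and Gdf15 did not pass the test. Fgf21 (chr7:45613886-45615490, minus strand) encodes a hormone from liver that acts on fat and brain through FGF receptors with beta-Klotho. It had 11.6, 31.0, 15.6 and 26.8 CPM in HFD_PFOA livers, against 8.92, 9.23, 8.26 and 6.09 CPM in HFD_vehicle livers. CD_PFOA livers had 25.4, 23.4, 12.7 and 26.6 CPM, against 5.55, 2.93, 5.01 and 13.4 CPM in CD_vehicle livers. The high-fat pair did not overlap, whereas on the control diet the highest vehicle mouse, CD_vehicle 4, lay above the lowest PFOA mouse. The rise was 2.62-fold on the high-fat diet (log2 1.39 ± 0.36, edgeR adjusted p = 0.0113) and 3.27-fold on the control diet (log2 1.71 ± 0.37, edgeR adjusted p = 0.00184). The high-fat call was lost without HFD_PFOA 2, its highest mouse (edgeR adjusted p = 0.0515).

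Fgf21 means were 22.03 ± 6.34 CPM in CD_PFOA, 21.2 ± 9.13 in HFD_PFOA, 8.13 ± 1.42 in HFD_vehicle and 6.73 ± 4.60 in CD_vehicle livers. In that order the middle neighbours alone differed beyond their spread. By the coefficient of variation, HFD_PFOA mice varied more in Fgf21 than in Trib3 (43.0% against 15.6%). The same held in CD_vehicle (68.4% against 30.6%) and CD_PFOA livers (28.8% against 21.9%). In CD_vehicle livers Fgf21 was at 13.4 CPM in CD_vehicle 4 and at 2.93 to 5.55 CPM in the others. Each coefficient rests on 4 mice, and the differences between them were not tested. In HFD_vehicle livers both genes were close, at 17.4% for Fgf21 and 18.5% for Trib3.

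Gdf15 (chr8:70629393-70632456, minus strand) encodes a stress cytokine that curbs appetite through the brain receptor GFRAL. It had 26.3, 26.2, 20.5 and 26.2 CPM in HFD_PFOA livers, against 25.3, 20.05, 19.5 and 21.6 CPM in HFD_vehicle livers. On the control diet it had 21.4, 23.5, 16.8 and 15.5 CPM in CD_PFOA livers, against 13.8, 7.01, 20.1 and 44.5 CPM in CD_vehicle livers. Every pair overlapped, and the CD_vehicle mice spanned both the lowest and the highest value of all. The log2 fold change with PFOA was 0.20 ± 0.33 on the high-fat diet (95% interval -0.50 to 0.89) and -0.15 ± 0.33 on the control diet (-0.85 to 0.55). Leaving out CD_vehicle 4 turned the control diet value to 0.50, not called.

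**Figure D3:**
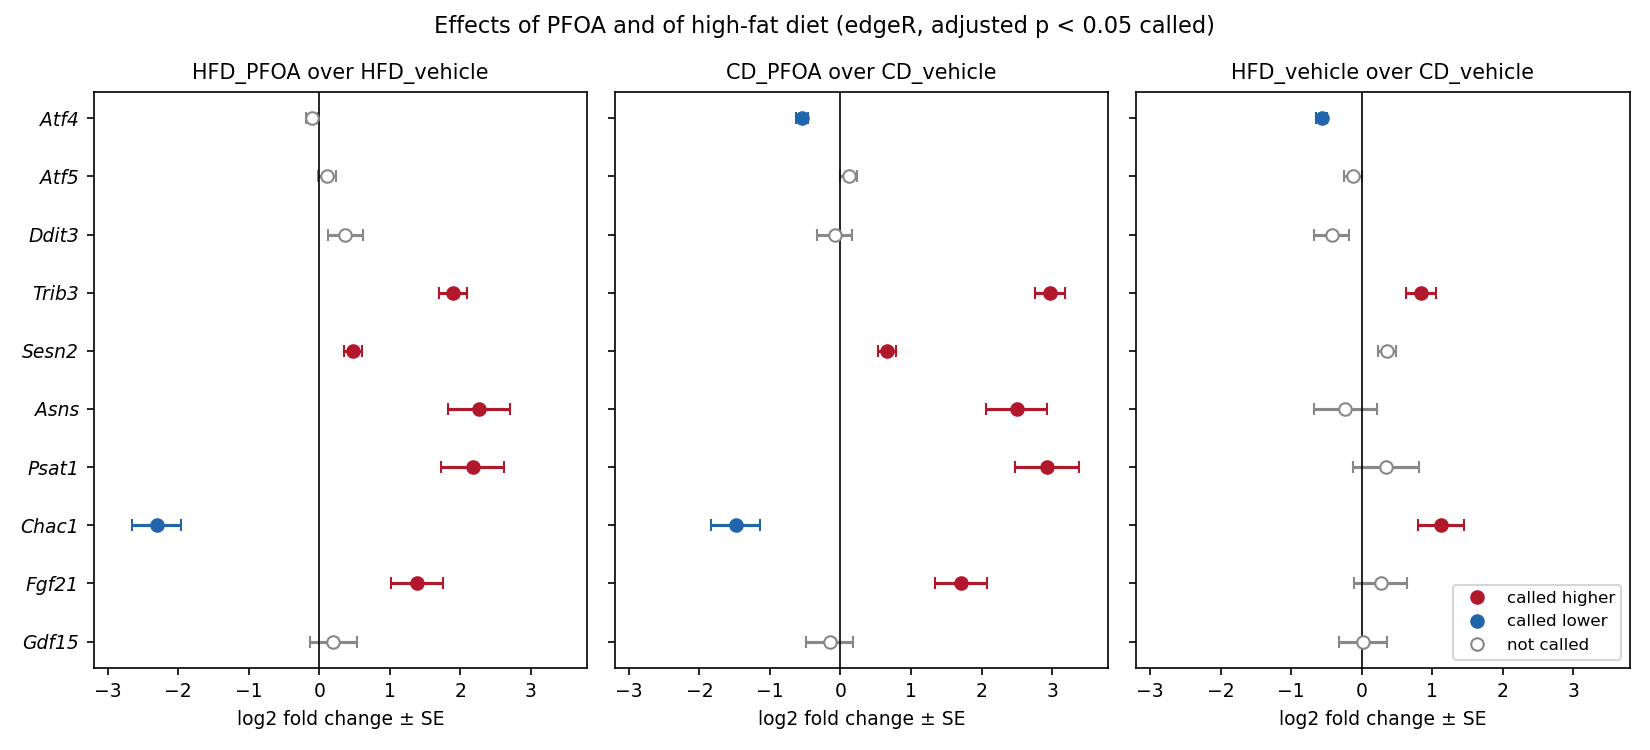
Log2 fold changes (horizontal, with SE bars) of the 10 genes for PFOA on the high-fat diet, PFOA on the control diet, and high-fat diet in mice given vehicle. Filled points are called by edgeR: Trib3, Sesn2, Asns, Psat1 and Fgf21 lie right of 0 and Chac1 left of it in both PFOA panels, while Trib3 and Chac1 both lie right of 0 in the diet panel.

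For high-fat diet without PFOA 3 of the 10 genes were called, and here Trib3 and Chac1 moved the same way. Trib3 was 1.79-fold higher in HFD_vehicle than in CD_vehicle livers (log2 0.84 ± 0.21, edgeR adjusted p = 0.0139) and Chac1 2.18-fold higher (log2 1.13 ± 0.33, edgeR adjusted p = 0.0340), while Atf4 was 1.48-fold lower (log2 -0.57 ± 0.08, edgeR adjusted p = 2.63e-04). None of these 3 overlapped, nor did Sesn2, which was 1.28-fold higher without passing the test (log2 0.36 ± 0.13, edgeR adjusted p = 0.0837). Of all genes, 5.19% were called higher and 5.21% lower, and 14.5% did not overlap. Asns, Psat1, Fgf21, Gdf15, Atf5 and Ddit3 had log2 differences between -0.43 and 0.34 and overlapping groups. Fgf21 was at 8.92, 9.23, 8.26 and 6.09 CPM in HFD_vehicle and 5.55, 2.93, 5.01 and 13.4 CPM in CD_vehicle livers (log2 0.27, 95% interval -0.51 to 1.04).

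Of the diet calls, that for Atf4 held in all 16 fits that left out a library, with an edgeR adjusted p of at most 0.00212. The call for Chac1 was the least firm. Chac1 lost its call in 7 of the 16 fits that left out a library, with an edgeR adjusted p of up to 0.0932. These were the fits without any single HFD_vehicle library and those without CD_vehicle 2, CD_vehicle 3 or CD_vehicle 4. Trib3 lost its call without HFD_vehicle 2 (edgeR adjusted p = 0.0581). Psat1 was called without CD_vehicle 4 (log2 1.45) and Sesn2 without CD_vehicle 1 (log2 0.45). With total counts in place of TMM the median of all genes was 0.19, against -0.03 with TMM, and Chac1 (1.34), Trib3 (1.05), Sesn2 (0.57) and Atf4 (-0.35) were all called. In the same comparison 4 of 10 macrophage markers were called higher, with sums of 494 to 692 CPM in HFD_vehicle and 243 to 481 CPM in CD_vehicle livers and none of the 10 at 0 in a whole group. Of 7 stellate cell markers 4 were called higher, with sums of 538 to 608 CPM in HFD_vehicle and at most 439 CPM in CD_vehicle livers. Cholangiocyte marker sums were 124 to 249 CPM in HFD_vehicle and 45.9 to 96.7 CPM in CD_vehicle livers, with 1 of 5 called higher. Of 8 hepatocyte markers 6 were called lower. The part of these cells in the levels of Trib3, Chac1 and Atf4 was not tested.

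Between the 2 PFOA groups no difference passed the test. None of the 10 was called for high-fat diet in mice given PFOA by edgeR, none had an unadjusted p under 0.05, and DESeq2 called 0 as well. Across all genes 0.0467% were called higher and 0.0133% lower, and 7.68% did not overlap, whereas all 10 of these overlapped. The estimates ran from log2 -0.47 ± 0.40 for Asns to 0.37 ± 0.33 for Gdf15, and the interval for Trib3 was -0.63 to 0.15.

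The test of whether PFOA acted differently on the 2 diets called 0 of the 10 by edgeR, with 0.0667% of all genes called higher and 0.14% lower. At an unadjusted p under 0.05 there were 2, Trib3 and Atf4, and DESeq2 called the same 2. For Trib3 the difference between the PFOA effects, high-fat minus control diet, was log2 -1.07 ± 0.28, with a 95% interval of -1.66 to -0.49 (edgeR adjusted p = 0.116, DESeq2 adjusted p = 0.0243). For Atf4 the difference was 0.45 ± 0.11 (edgeR adjusted p = 0.109, DESeq2 adjusted p = 0.0212). In both genes the livers given vehicle differed by diet and the PFOA livers were close, at 33.6 ± 5.24 and 39.6 ± 8.65 CPM of Trib3 in HFD_PFOA and CD_PFOA livers and 75.7 ± 2.22 and 82.4 ± 4.61 CPM of Atf4.

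Compared per kb of exon, the order of the 10 genes was different in livers with and without PFOA. In all groups Atf5 led, followed by Atf4 at 32.1 ± 0.943 CPM per kb in HFD_PFOA, 34.9 ± 1.96 in CD_PFOA, 34.4 ± 1.27 in HFD_vehicle and 51.1 ± 4.58 in CD_vehicle livers. Fgf21 came next in the PFOA groups, at 22.3 ± 9.60 in HFD_PFOA and 23.2 ± 6.67 in CD_PFOA livers, then Trib3, at 15.8 ± 2.47 and 18.6 ± 4.07. Chac1 was last in both PFOA groups, at 1.72 ± 0.793 and 1.38 ± 0.698. In the groups given vehicle Gdf15 came next, at 11.7 ± 1.40 in HFD_vehicle and 11.5 ± 8.82 in CD_vehicle livers, and Asns and Psat1 shared the last places, with means of 0.414 to 0.559 CPM per kb. Gdf15, Ddit3 and Fgf21 in CD_vehicle livers had SDs larger than the gaps to their neighbours, so their order there is not fixed. Nor is that of Fgf21 and Trib3 in the PFOA groups. Fgf21 was the lower in HFD_PFOA 1 (12.2 against 12.9 CPM per kb) and CD_PFOA 3 (13.4 against 15.4). In HFD_PFOA livers Chac1 also lay within its SD of Asns (2.31 ± 1.08) and of Psat1 (2.39 ± 0.720), so the last place there is not fixed.

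Profiles most like those of Trib3 and Fgf21 were sought over the 16 livers among 12372 genes, by the root mean square difference of standardised log2 CPM. For Trib3 they were Gpat3 (0.149) and Mogat1 (0.190), which encode enzymes of glycerolipid synthesis, the neutral ester hydrolase Nceh1 (0.177), the histone demethylase Kdm6b (0.182) and the GTP-binding protein Gtpbp2 (0.187). Gpat3 followed Trib3 in each comparison, at log2 2.24 with PFOA on the high-fat diet, 3.27 on the control diet and 0.96 with high-fat diet alone. Fgf21 had no profile as close. The nearest were the phosphatase Ptp4a3 (0.369), Nceh1 (0.377), Kdm6b (0.381), Psat1 (0.388) and Tmem82 (0.395). These are descriptions over livers that fall into 4 groups.

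Around these 10 genes, all 12 endoplasmic reticulum chaperones and folding enzymes tested were lower with PFOA on both diets, with median log2 -1.15 on the high-fat and -1.48 on the control diet, against 0.00752 and -0.00240 over all genes. Among them were the chaperone Hspa5 (BiP; -1.22 and -1.86), its cochaperone Sdf2l1 (-1.85 and -3.27), the disulphide isomerase Pdia6 (-1.20 and -1.46) and the secreted factor Manf (-1.50 and -2.08), in that order of diets. DESeq2 called 9 of the 12 on the high-fat diet, and without CD_vehicle 1 the control diet median was -1.09 with 12 still called. Of 13 mitochondrial chaperones and proteases, 8 were called higher and 0 lower on the high-fat diet and 8 higher and 1 lower on the control diet. The chaperonins Hspd1 (1.02 and 0.88) and Hspe1 (1.06 and 0.87), the chaperone Hspa9 (0.64 and 0.67) and the protease Lonp1 (0.72 and 0.74) rose on both diets. The median of the 13 was 0.36 and 0.31. For these lists and those below, 8.6% of all genes were called higher and 7.91% lower on the high-fat diet. On the control diet the shares were 11.8% and 12.6%.

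Other enzymes of amino acid and folate metabolism did not follow Asns and Psat1. Of 15 tested, 0 were called higher and 4 lower with PFOA on the high-fat diet, and 1 higher and 8 lower on the control diet. Cystathionine beta-synthase Cbs (-1.07 and -1.47), the aspartate aminotransferase Got1 (-1.02 and -1.95) and the folate enzyme Aldh1l1 (-0.73 and -1.22) fell on both diets, while Mthfd1l, a mitochondrial folate enzyme named after its value was seen, was the gene called higher on the control diet (1.52; -0.41 on the high-fat diet, not called). The median of the 15 was -0.41 on the high-fat and -0.64 on the control diet. Of 14 amino acid transporters 1 was higher and 2 lower on the high-fat diet and 4 higher and 4 lower on the control diet, with medians of -0.00143 and -0.32. Slc3a2, the shared heavy chain of several transporters, rose on both (1.28 and 1.51), and Slc38a2, itself a classical target of ATF4, fell on both (-0.48 and -0.90). The glycine transporter Slc6a9 rose on the control diet (0.86) and was at 0.38 on the high-fat diet, not called. Of 20 cytosolic tRNA synthetases, also usual targets, 0 were higher and 2 lower on the high-fat diet and 2 higher and 6 lower on the control diet, with medians of -0.04 and -0.23. The threonyl enzyme Tars fell on both (-0.45 and -0.99), and the seryl enzyme Sars rose on the control diet (0.42) and was at 0.16 on the high-fat diet, not called. Without CD_vehicle 1 the control diet count was 3 and 3.

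A further 19 genes known to be induced through ATF4 or CHOP were split, with 4 higher and 5 lower on the high-fat diet and 4 higher and 6 lower on the control diet, and medians of -0.13 and -0.31. The lipoprotein receptor Vldlr (2.25 and 2.90) and the autophagy gene Map1lc3b (0.31 and 0.44) rose on both, while the cell cycle inhibitor Cdkn1a (-1.81 and -1.03), the mTORC1 inhibitor Ddit4 (-1.26 and -1.30) and Herpud1, which acts in the disposal of misfolded proteins (-1.39 and -1.16), fell. Of 16 partner and stress transcription factors, 3 were higher and 6 lower on the high-fat diet and 5 higher and 4 lower on the control diet, with medians of -0.28 and -0.25. Nupr1 (1.99 and 2.25), a small stress-induced chromatin protein, the liver factor Creb3l3 (0.75 and 0.68), which is known to act on the Fgf21 gene, and Nfe2l1 (0.55 and 0.47) rose on both. Cebpg, a C/EBP partner of ATF4, rose on the control diet (0.63, edgeR adjusted p = 6.78e-05) and was at 0.25 on the high-fat diet, not called. Atf3, a stress factor downstream of ATF4 that is named here after its value was seen, rose on the control diet (1.46, edgeR adjusted p = 0.0171) and was at 0.60 on the high-fat diet, not called. The forkhead factor Foxo3 fell on both (-0.50 and -0.77). Atf6, a sensor of endoplasmic reticulum stress, fell on both (-0.57 and -0.47).

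Upstream, 0 of 12 eIF2 kinase, phosphatase and translation control genes were higher and 2 lower on the high-fat diet, and 1 higher and 3 lower on the control diet, with medians of -0.08 and -0.14. The kinase Eif2ak3 (PERK; -0.49 and -0.61) and its inhibitor Dnajc3 (-0.82 and -0.85) fell on both. Eif4ebp1, which encodes a repressor of cap-dependent translation, was the gene called higher on the control diet (0.52, edgeR adjusted p = 2.88e-04) and was at 0.18 on the high-fat diet, not called. These are mRNA levels, and eIF2 phosphorylation was not measured. A list of 14 genes held sestrin, TOR and AKT partners and also the glutathione cycle enzyme Ggct. Of these 14, 2 were higher and 3 lower on each diet, with medians of -0.23 and 2.46e-04. Sesn3, a relative of Sesn2, fell on both (-0.48 and -0.33), and Mtor (0.37 and 0.40) and Ggct (0.68 and 0.82) rose. Among 13 genes of FGF21 and GDF15 reception and upstream regulation, 1 was higher and 2 lower on the high-fat diet and 3 higher and 3 lower on the control diet, with medians of -0.07 and -0.18. Over all genes 8.6% were higher and 7.91% lower on the high-fat diet, and 11.8% and 12.6% on the control diet. The small counts of these lists were not tested against those shares. The glucose-responsive factor Mlxipl rose on both (1.02 and 0.71) and the receptor Fgfr4 fell on both (-0.99 and -0.92). Ppara was higher with PFOA on the control diet (0.86) and was not called on the high-fat diet (0.22), and with high-fat diet alone it was 0.75 higher. The FGF21 coreceptor gene Klb was called lower with high-fat diet alone (-0.59) and not with PFOA. Gfral had 0 counts in all 16 livers. A 0 in a single library allows an expected count there of up to about 3, so absence of its RNA is not shown.

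**Figure D4:**
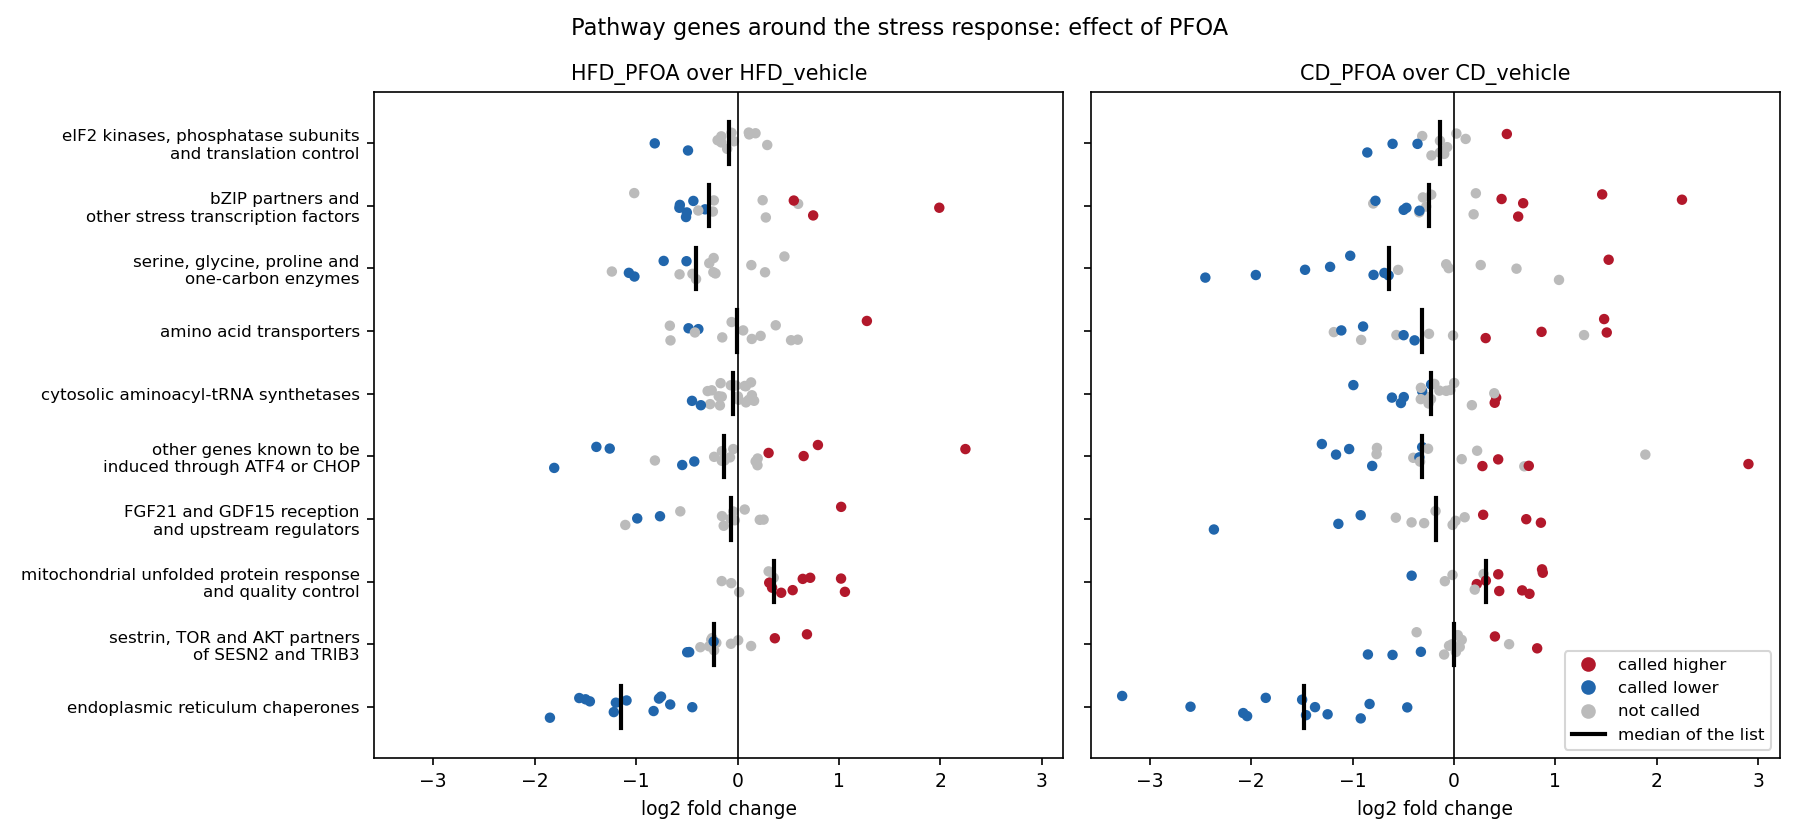
Log2 fold changes (horizontal) of the genes of 10 pathway lists with PFOA on the high-fat diet and on the control diet, with a point for each gene coloured by its call and a bar at the median of the list. All 12 chaperones of the endoplasmic reticulum lie left of 0 in both panels, and 8 of 13 mitochondrial genes are called higher in each.

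With PFOA 7 of 8 hepatocyte markers were called lower on each diet, 0 of 10 macrophage markers were called on either, and adipocyte markers were near 0, with sums of at most 7.17 CPM and Lep at 0 counts in all 16 livers. On the high-fat diet cholangiocyte marker sums were 55.3 to 78.8 CPM in HFD_PFOA and 124 to 249 CPM in HFD_vehicle livers, and stellate sums were 401 to 506 CPM and 538 to 608 CPM in the same groups, with 1 marker of each list called lower. On the control diet 3 of 6 sinusoidal endothelium markers were called higher and 1 lower, with sums of 214.2 to 291.6 CPM in CD_PFOA and 193.4 to 224.6 CPM in CD_vehicle livers, and 2 of 7 stellate markers were called higher. B and plasma cell markers had 2 of 6 called lower on the control diet, where CD_vehicle 4 stands apart. The part of these markers in the levels of the 10 genes was not tested.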

How the data were processed

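RNA was extracted from flash-frozen livers with a Qiagen RNeasy kit and sequenced from non-stranded BGI libraries, per the labels' protocols. The submitters' processing notes list STAR 2.5.2b, featureCounts (Subread 1.6.0), Trimmomatic 0.33 and bcl2fastq 2.20.0.422, with GRCm38 (mm10) as build, and name no annotation release. As deposited, the values are unnormalized whole-number counts of reads for 53465 genes in 16 libraries, and 0 columns were left unused. Mice were grouped by the label that names diet and treatment, and each mouse is a replicate per the design text; replicate numbers only follow record order.

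Genes kept by filterByExpr (14998) were scaled by TMM factors and fitted with edgeR 4.0.16 in R 4.3.3 (glmQLFit, glmQLFTest, a mean per group, 12 residual degrees of freedom), with p-values adjusted by Benjamini-Hochberg over all genes tested. SE values follow from the log2 fold change and its F statistic, and 95% intervals use the moderated degrees of freedom. The fit was tested on simulated data. Alternatives were total counts as library sizes, DESeq2 1.42.0, no filter, only the groups compared, each library left out in turn, and CD_vehicle 1 and CD_vehicle 4 left out together; list counts without CD_vehicle 1 were added after seeing the data. Counts of called genes are given by direction for comparisons of 2 groups and in total for the interaction, a form chosen after the counts were known. Exon lengths, positions and overlaps come from GENCODE M21 (GRCm38) and promoters from RefSeq (GRCm38.p6). Symbols matched for all 10 genes; the list symbols Mars1, Ero1a, Dele1, Castor1 and Castor2 had no match and are not used here.

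The members and gene lists were chosen with earlier results of these data known, so they support nothing by themselves. Named genes are the 10 members in every comparison, genes taken from the 4 smallest p of each list in a comparison, and the 5 nearest profiles to Trib3 and Fgf21 among genes with a mean CPM of at least 1. Counts carry no molecular identifiers, so the sampling error of a count covers counting error only.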

Additional observations from a re-analysis of the deposited data

Results flagged for a closer look

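In 3 of 40 checks of a library against the other 3 of its group, the gap to the nearest library passed Dixon's 95% limit as a share of the group's range, which chance does in about 1 group of 20. Ddit3 in CD_vehicle 1 stood at 25.4 CPM, above the other CD_vehicle livers at 10.1 to 11.8. Psat1 in CD_vehicle 4 stood at 4.57 CPM, above 0.687 to 1.03. Gdf15 in HFD_PFOA 3 stood at 20.5 CPM, below the other HFD_PFOA livers at 26.2 to 26.3. The first 2 lie in the libraries that also stood apart in chaperone RNA and in B and plasma cell markers.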

How the results depend on the processing

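Of 50 values (10 genes in 5 comparisons), 46 kept direction and call with total counts in place of TMM, 48 with DESeq2 and 49 without a filter on low counts, as did 39 of 40 with only the groups compared. With total counts the calls over all genes were 2160 higher and 1376 lower for PFOA on the control diet (1763 and 1893 with TMM), 2052 and 288 for high-fat diet in vehicle (779 and 782), 11 and 1 for high-fat diet in PFOA (7 and 2), and 6 and 38 for the interaction (10 and 21), whose median over all genes was -0.10. Uncalled values changed sign for Ddit3 with PFOA on the control diet (0.00500), Atf5 with high-fat diet in vehicle (0.10) and Fgf21 with high-fat diet in PFOA (0.038). High-fat diet in PFOA had 94 genes higher and 65 lower with DESeq2, 142 and 83 without a filter, 75 and 54 with only the groups compared, and 124 and 84 without CD_vehicle 1 and CD_vehicle 4. The interaction had 194 genes in both directions with DESeq2 (2 of the 10), 290 without a filter (1 of the 10, Trib3), and 652 without both libraries (2 of the 10). High-fat diet in vehicle had 490 and 406 with only the groups compared, where Trib3 was not called (edgeR adjusted p = 0.0631), and 1283 higher without both libraries, with 5 of the 10 called. Without both, sign changed for Ddit3 (0.29) and Gdf15 (0.50) with PFOA on the control diet, Asns with high-fat diet in vehicle (0.90) and Gdf15 in the interaction (-0.31), and PFOA on the control diet gave 3.63 for Asns and 2.47 for Fgf21. The cause was not tested.

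Leaving out each library in turn gave 448 to 1228 genes higher, 433 to 1044 lower and 1 to 4 of the 10 called for high-fat diet in vehicle, 0 to 43 higher and 1 to 16 lower for high-fat diet in PFOA, and 13 to 352 genes and 0 to 2 of the 10 for the interaction. The highest counts of genes came without CD_vehicle 4, except the 16, which came without CD_vehicle 1. The 2 of the 10 called for the interaction also came without CD_vehicle 4. They were Trib3 (log2 -1.24, edgeR adjusted p = 0.0200) and Psat1 (log2 -1.85, edgeR adjusted p = 0.0257). With all 16 libraries Psat1 was at -0.75 in the interaction, not called. Log2 values that changed sign were uncalled and ran, for PFOA on the control diet, from -0.22 to 0.34 (Ddit3) and -0.44 to 0.50 (Gdf15); for high-fat diet in vehicle, from -0.52 to 0.13 (Asns) and -0.27 to 0.67 (Gdf15); for high-fat diet in PFOA, from -0.075 to 0.12 (Ddit3), -0.0028 to 0.67 (Chac1) and -0.29 to 0.15 (Fgf21); and for the interaction, from -0.60 to 0.051 (Asns), -0.10 to 0.12 (Atf5) and -0.30 to 0.64 (Gdf15).

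No paired analysis was possible because the labels give no replicate numbers that tie mice of different groups. Counts as low as 11, for Asns, limit the precision of the scarcer genes.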

Other observations

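After the values had been seen, Ddit3 was set beside the summed endoplasmic reticulum chaperones in each liver. In 3 of 4 groups the liver with the highest chaperone sum also had the most Ddit3: HFD_PFOA 1 (3615 CPM of chaperones, 16.8 CPM of Ddit3), CD_PFOA 4 (2733 and 16.0) and CD_vehicle 1 (11237 and 25.4). In HFD_vehicle livers they were different mice, HFD_vehicle 2 with 5526 CPM of chaperones and HFD_vehicle 3 with 12.6 CPM of Ddit3. The match in CD_PFOA livers was narrow. CD_PFOA 2 had 2702 CPM of chaperones with 12.4 CPM of Ddit3, and CD_PFOA 1 had 2589 with 15.5. Across groups the values did not run together, since PFOA livers had the lower chaperone sums.

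HFD_PFOA 1 was the highest of its group in Ddit3, Asns, Chac1, Sesn2 and Gdf15 and the lowest in Atf5, Trib3, Psat1 and Fgf21. CD_vehicle 2 was the lowest of its group in 8 of the 10 and the highest in none. CD_PFOA 3 was the lowest in 5 (Atf5, Ddit3, Trib3, Asns and Fgf21) and HFD_vehicle 4 in 4, and both were the highest in none. HFD_PFOA 2 and CD_PFOA 1 were each the highest in 4 and the lowest in none.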
